A study of Mus musculus with 6 samples.

Results

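Condensin and cohesin are the ring-shaped protein complexes that fold chromosomes. The genes examined were Smc2, Smc4, Ncapd2, Ncapd3, Ncapg, Ncapg2 and Ncaph of condensin and Smc1a, Smc3 and Rad21 of cohesin, and every array probe set annotated to one of these symbols alone was taken. This gave 18 probe sets for 9 of the 10 genes, out of 12393 genes measured this way, with no such probe set for Ncapd3. Of the 9 genes, 3 had 1 probe set, 3 had 2 and 3 had 3. The genes are spread over the genome, with Ncaph on chromosome 2, Smc4 on 3, Smc2 on 4, Ncapg on 5, Ncapd2 on 6, Ncapg2 on 12, Rad21 on 15, Smc3 on 19 and Smc1a on X. In the reference annotation Ncapg overlaps the coding gene Lcorl, Smc1a overlaps Ribc1 and Rad21 overlaps Gm52217.

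The arrays held RNA of regulatory T cells (Treg), CD4 T cells that depend on the factor Foxp3 and hold other immune cells in check, sorted as CD4+YFP+ from mice on a C57BL/6 background. Each group has 3 samples with 1 array each. The control arrays have B6_WT titles and the genotype Foxp3cre, a Cre recombinase tied to the Foxp3 locus and so to Treg. The compared arrays have USP7 titles; the series text gives fl-Usp7/Foxp3cre mice, whereas their genotype field reads fl-HDAC11/Foxp3cre. Titles decided the groups, named control and USP7-titled here; the Cre is present in each. Age is not given, and the text speaks of independent samples but names no animals, so a p-value reflects only how far these samples spread, which may be technical. The series asks what loss of Usp7, a deubiquitinase, does to Treg gene expression.

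Both complexes are built on a pair of SMC proteins, long ATPases joined at a hinge and bridged at their heads by a kleisin subunit. In condensin the SMC proteins are Smc2 and Smc4. Condensin I adds Ncapd2, Ncapg and the kleisin Ncaph, and condensin II adds Ncapd3, Ncapg2 and the kleisin Ncaph2; together they compact chromosomes for mitosis, and a mutation of Ncaph2 in mice is known to impair T cell development. In cohesin the SMC proteins are Smc1a and Smc3, the kleisin is Rad21, and a Stag protein completes the complex. Cohesin holds sister chromatids together from replication to anaphase, and in non-dividing cells it forms chromatin loops that stop at Ctcf. In RNA from a sorted population, fewer cells of a kind and less RNA per cell cannot be told apart.

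Labels and purity were checked first. Usp7 read 11.69, 11.73 and 11.61 in controls against 10.54, 10.69 and 10.76 under the USP7 title, a log2 change of -1.01, and Hdac11 6.65, 6.20 and 6.29 against 6.04, 5.65 and 5.74, a change of -0.58. Both genes named in the labels passed as lower, but the Hdac11 call was lost under spike scaling (-0.42, limma adjusted p = 0.0539), with its probe sets averaged, and without control replicate 1 or USP7-titled replicate 2 (limma adjusted p = 0.0878 and 0.0645), and its other probe set changed by -0.22. Foxp3, which defines Treg, read 12.82, 13.13 and 12.99 against 6.85, 7.29 and 6.87, a change of -5.98. Taken alone, this gene goes against the Treg label of these arrays, but the other listed Treg and T cell genes changed far less. Of 9 such genes measured, Foxp3 included, 6 were lower, 0 higher and 3 did not pass, and the Treg factor Ikzf2 was at -0.21. The Treg receptors Il2ra (-0.17) and Ctla4 (-0.36) passed as lower by small amounts; Cd4, at 0.01, did not pass. Scaled to the hybridization spikes, Il2ra was at -0.02 and did not pass (limma adjusted p = 0.858), and Cd4 passed as higher at 0.17 (limma adjusted p = 0.034). Where the probes of the deleted gene lie, and where those of Foxp3 lie relative to the Cre, was not analysed here. Sex-linked genes separated the groups: the X-inactivation RNA Xist differed by -7.20 and the Y-linked Eif2s3y by 5.65, Kdm5d by 2.58 and Uty by 1.69, and sex therefore cannot be told apart from group. Of 12 myeloid markers 8 were higher and 0 lower, their mean level per array being 6.36 to 6.83 for controls against 7.94 to 8.19 for the other group (C1qb changed by 2.86 and C1qc by 2.48, whereas Adgre1, at 0.49, and Itgam, at -0.13, did not pass); the lowest group mean of any of the 12 was 5.25, and no value is at 0. Of 7 B cell markers 1 was higher. Of 8 CD8 T and NK cell markers 2 were higher (Gzma 3.21, Nkg7 2.76) and 1 lower (Prf1 -0.45), and of 5 dendritic cell markers 1 was higher and 1 lower. Over all genes, 16.9% passed as higher and 15.6% as lower. The mean level per array, controls first, was 6.99 to 7.09 and 7.08 to 7.31 for the B cell list, 7.08 to 7.25 and 7.64 to 7.88 for the CD8 T and NK cell list, and 7.10 to 7.12 and 7.07 to 7.19 for the dendritic cell list. The part of these other cell types in the changes below was not tested.

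Among the chosen condensin genes, transcripts rose strongly in USP7-titled arrays, with 1 exception. Of the 6 chosen genes measured, 5 rose, by 3.86-fold to 7.72-fold, and Smc4 fell to 73.7% of control. Ncaph2, a condensin II gene outside the chosen members and the counts below, rose less, by 1.63-fold. Of the 3 measured cohesin genes, Rad21 rose 1.44-fold, Smc3 rose 1.25-fold, and Smc1a did not pass. These gene counts use the probe set with the highest mean of each gene, and passing means a limma adjusted p under 0.05. The background is high: 32.4% of all genes passed, 16.9% as higher and 15.6% as lower. Changes as large as those of condensin were rarer, since 0.758% of genes rose at least 4-fold, against 4 of the 6 condensin genes and 0 of the 3 cohesin genes. By probe set, 6 of 10 for condensin and 0 of 8 for cohesin did so, against 0.769%. The median log2 change was 2.34 for condensin, 0.33 for cohesin and -0.05 for all genes. Counted by probe set, condensin had 7 of 10 higher and 3 lower, and cohesin 4 of 8 higher and 0 lower, where 33.3% of all probe sets passed, 16.2% as higher and 17.1% as lower. The groups did not overlap in 10 of 10 condensin and 5 of 8 cohesin probe sets, against 45.7% of all probe sets, and in 6 of 6 condensin and 2 of 3 cohesin genes, against 45.6% of genes.

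**Figure D1:**
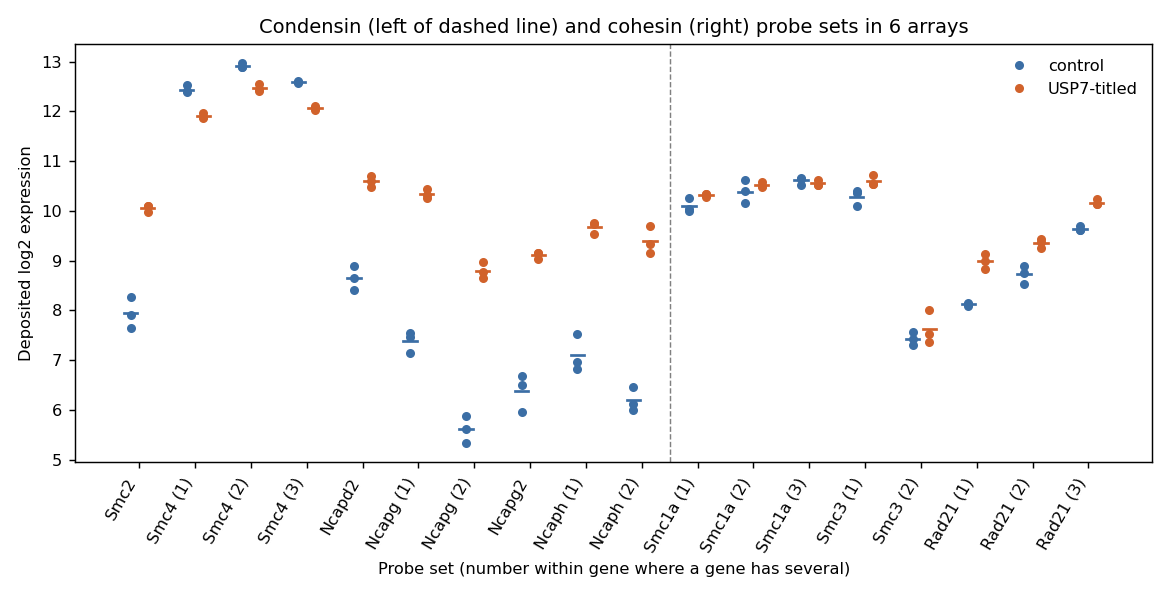
Deposited log2 expression of the 18 probe sets in each of the 6 arrays; points are arrays, short bars are group means, and the dashed line separates condensin from cohesin. The condensin probe sets other than those of Smc4 lie far apart between groups, the Smc4 probe sets lie slightly lower in USP7-titled arrays, and most cohesin groups are close together.

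Smc2 encodes an SMC ATPase found in both condensins. Its only probe set read 7.90, 7.65 and 8.28 in controls against 9.97, 10.10 and 10.09 under the USP7 title. Every USP7-titled array was thus above every control, and the controls were the more spread group. Group means were 7.94 ± 0.31 and 10.05 ± 0.07 (SD, 3 arrays each), giving a log2 change of 2.11 (SE 0.15, limma adjusted p = 2.38e-06) or 4.32-fold.

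Smc4 encodes the partner of Smc2 in the same ring, yet its transcript went the other way. Its brightest probe set read 12.97, 12.88 and 12.88 in controls against 12.55, 12.45 and 12.41 under the USP7 title. The groups did not overlap, and all 3 arrays of each group lay close together. Group means were 12.91 ± 0.05 and 12.47 ± 0.08 (SD, 3 arrays each), giving a log2 change of -0.44 (95% interval -0.54 to -0.34, SE 0.04, limma adjusted p = 3.25e-05). The other Smc4 probe sets changed by -0.53 (limma adjusted p = 1.7e-05) and -0.52 (limma adjusted p = 3.3e-06), again with no overlap between the groups. Its brightest probe set is among the strongest signals on the array (percentile 98.5 by mean). A fall of this size is not rare in these arrays: 10.9% of all genes and 12.6% of all probe sets passed with a fall of at least 0.4. Scaled to the hybridization spikes, where the median of all genes moved from -0.05 to 0.11, the 3 Smc4 probe sets were still lower, at -0.37, -0.28 and -0.36 (limma adjusted p = 0.000439, 0.00185 and 0.00141). In the reference annotation the microRNA genes Mir15b and Mir16-2 lie within Smc4; the array values used here are for Smc4 probe sets only.

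The difference between Smc2 and Smc4 was also taken within each array, which removes anything that scales a whole array. Smc2 minus Smc4 was -5.08, -5.22 and -4.61 in controls against -2.58, -2.35 and -2.31 under the USP7 title, so the difference in change was 2.55. With 3 against 3 arrays an exact two-sided permutation test cannot go below p = 0.1, and this pair reached that floor (adjusted over the 5 pairs compared, p = 0.167). The value was 2.63 and 2.65 with the other Smc4 probe sets.

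**Figure D2:**
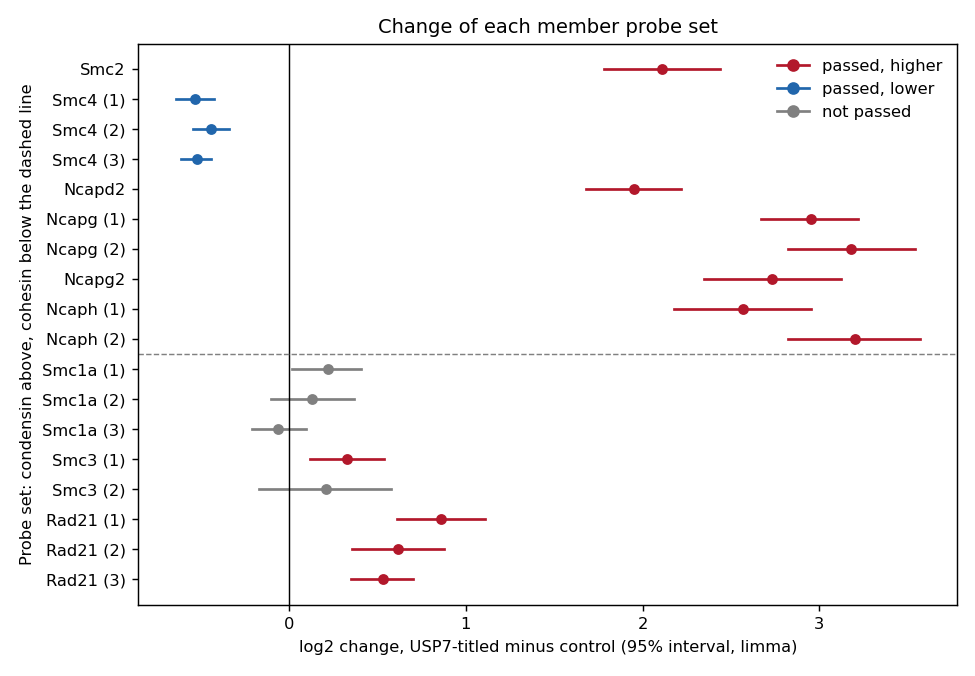
Log2 change, USP7-titled minus control, of each of the 18 probe sets, with its 95% interval from limma; red and blue mark probe sets that passed as higher and lower, and grey those that did not pass. The Smc4 probe sets lie left of zero at -0.53, -0.44 and -0.52, and the other condensin probe sets lie between 1.95 and 3.20.

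Among the remaining condensin I subunits, Ncapd2, a HEAT-repeat subunit, read 8.89, 8.65 and 8.42 in controls against 10.49, 10.71 and 10.61 under the USP7 title. Its change of 1.95 (SE 0.12, limma adjusted p = 1.12e-06), or 3.86-fold, was the smallest among the 5 chosen condensin genes that rose. The kleisin Ncaph read 7.53, 6.96 and 6.83 in controls against 9.76, 9.73 and 9.54 under the USP7 title by its brightest probe set. That is a rise of 2.57 (SE 0.17; adjusted p = 1.85e-06 by limma), or 5.93-fold, and the dimmer Ncaph probe set changed by 3.20 (limma adjusted p = 3.5e-07). In both genes the USP7-titled arrays were well above all controls.

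Ncapg, the other HEAT-repeat subunit of condensin I, rose the most by the brightest probe set of each gene; over all probe sets the dimmer one of Ncaph, at 3.20, was just above the dimmer one of Ncapg, at 3.18. Its brightest probe set read 7.47, 7.15 and 7.54 in controls against 10.25, 10.32 and 10.44 under the USP7 title, so the log2 change was 2.95 (SE 0.12, adjusted p = 6.91e-08 by limma) or 7.72-fold. The dimmer one read 5.89, 5.63 and 5.33 against 8.66, 8.97 and 8.77 and changed by 3.18 (limma adjusted p = 2.75e-07). Of the 12393 genes, 30 had a larger rise than the brightest Ncapg probe set. The lowest USP7-titled array was above the highest control by 2.71 on the log2 scale for the brightest and by 2.77 for the dimmer.

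Condensin II was measured through Ncapg2 and, outside the chosen members, Ncaph2. Ncapg2, the counterpart of Ncapg, read 6.69, 5.97 and 6.51 in controls against 9.16, 9.04 and 9.16 under the USP7 title, so the log2 change was 2.73 (SE 0.17, adjusted p = 1.23e-06 by limma) or 6.64-fold. The within-array difference Ncapg minus Ncapg2 was 0.78, 1.18 and 1.03 in controls against 1.08, 1.28 and 1.28 under the USP7 title. The groups overlapped and the difference in change was 0.22 (exact permutation p = 0.2, adjusted over the pairs p = 0.2), so the condensin I and II versions of this subunit were not distinguished at 3 arrays a group. The difference was 0.11 without control replicate 1 and 0.45 with the other Ncapg probe set (exact permutation p = 0.3). Ncaph2 rose less, from 9.51, 9.37 and 9.55 to 10.19, 10.20 and 10.14, a rise of 0.70 (SE 0.09, limma adjusted p = 0.000114). Its other probe sets changed by 0.25 to 0.76.

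Cell cycle genes that peak before mitosis often carry a short promoter element called the CHR, and genes driven by E2F factors carry another. RefSeq promoter windows (build GRCm38.p6, 250 bases before to 50 after a start site) were given for 8 of the 10 genes, and both were searched there on both strands with CCAAT, the box that binds NF-Y. Smc4, which fell, and Rad21 had no window given, so their promoters were not searched. The CHR was searched as TTTGAA. The E2F element was searched as TTGGCGC and in the further forms TTCCCGC, then likewise TTGCCGC, and finally also TTCGCGC. The reverse of CCAAT can share letters with the first E2F form, but no matches overlapped in the windows of these genes. TTTGAA was found in the windows of Smc2, Ncapg, Ncapd2 and Ncapg2 and in 1 of the 2 windows of Ncapd3, not in those of Ncaph, Smc3 or Smc1a, and in 17.9% of the 32851 windows of the table. An E2F element was found for Ncaph, Ncapg, Ncapd2, Ncapg2, Ncapd3 and Smc1a and in 9.57% of all windows. CCAAT was found for Smc2, Ncapg, Ncapd2 and Smc1a and in 37.4% of all windows. Smc3 had no match to any of these. The CCAAT and E2F matches did not follow the size of the change: Smc1a, which did not pass, had both, and Smc2, which rose, had no E2F match. TTTGAA was present for Smc2, Ncapg, Ncapd2 and Ncapg2, which rose, and absent for Smc3 and Smc1a. Ncaph, up 5.93-fold, had an E2F match only. Whether any match goes with the changes was not tested. A match is a run of letters, not a measured binding site.

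The TTTGAA matches of the condensin genes that rose are printed, with 1 E2F match each of Ncapd2, Ncapg and Ncapg2, to show their letters and their distance from the start. A further E2F match of Ncapg2, ending at -243, the E2F match of Ncaph at 42 to 48 and the TTTGAA of Ncapd3, ending at -244, lie too near the edge of their windows for 30 bases and are not printed. Each line gives 30 bases on the strand of the gene, 5′ to 3′, with the match in capitals; a match on the opposite strand appears as TTCAAA for the CHR and as GCGGGAA for the E2F element.
Ncapg TTTGAA, chr5:45669883-45669912, plus strand: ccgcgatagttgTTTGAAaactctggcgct
Ncapg2 TTTGAA, chr12:116405406-116405435, plus strand: tacgcgggtgtgTTTGAAtctggtccgagc
Ncapd2 TTTGAA, chr6:125191692-125191721, minus strand: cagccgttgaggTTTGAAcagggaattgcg
Smc2 TTTGAA upstream, chr4:52439064-52439093, plus strand: tcgctttccatgTTCAAAacggtatagtct
Smc2 TTTGAA downstream, chr4:52439235-52439264, plus strand: ctcgcgccgaaaTTCAAAggaacagttccg
Ncapd2 E2F, chr6:125191575-125191604, minus strand: catctcgttgtTTGGCGCgtatcctgccct
Ncapg E2F, chr5:45669945-45669974, plus strand: tgtcggaagccGCGGGAAactgagtcctcc
Ncapg2 E2F, chr12:116405425-116405454, plus strand: ctggtccgagcGCGGGAAactatgggtctg
The TTTGAA of Ncapg lies at -30 to -25 and that of Ncapg2 at -18 to -13 from the start site, whereas that of Ncapd2 lies at -123 to -118. Those of Smc2 lie at -145 to -140 and, inside the transcribed part, at 27 to 32. In Ncapg2 the printed E2F match starts at the first transcribed base, and in Ncapd2 it ends at the last base before it.

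The cohesin core changed little by comparison. Rad21, the kleisin that separase cuts at anaphase, rose by all 3 of its probe sets. The brightest read 9.62, 9.61 and 9.70 in controls against 10.13, 10.14 and 10.23 under the USP7 title, so the log2 change was 0.53 (SE 0.08, adjusted p = 0.000548 by limma). The others changed by 0.86 (SE 0.11, limma adjusted p = 0.000217) and 0.62 (SE 0.12, limma adjusted p = 0.00222). In none of the 3 did the groups overlap.

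Smc3, an SMC subunit of the ring, rose by its brightest probe set only. That probe set read 10.39, 10.09 and 10.35 in controls against 10.54, 10.73 and 10.54 under the USP7 title, which leaves a gap of 0.15 between the groups. The change was 0.33 (SE 0.09, limma adjusted p = 0.0222). Leaving out control replicate 2 gave 0.23 (adjusted p = 0.0854 by limma), and leaving out replicate 2 of the other group gave 0.26 (adjusted p = 0.0862 by limma), so the call rests on those arrays. The dimmer Smc3 probe set read 7.56, 7.30 and 7.43 against 8.01, 7.53 and 7.37, with groups that overlapped and a change of 0.21 (SE 0.17, limma adjusted p = 0.392).

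Smc1a, the partner of Smc3, is X-linked, and the groups differ in sex as described. Its brightest probe set read 10.65, 10.52 and 10.67 in controls against 10.52, 10.62 and 10.52 under the USP7 title, a change of -0.06 (95% interval -0.21 to 0.10, limma adjusted p = 0.605), whose sign turns to 0.10 under spike scaling. The others changed by 0.22 (95% interval 0.02 to 0.41, limma adjusted p = 0.0836) and 0.13 (95% interval -0.10 to 0.37, limma adjusted p = 0.379). The first of these passed under spike scaling, at 0.38 (limma adjusted p = 0.0255), and without control replicate 3, at 0.30 (limma adjusted p = 0.0198). The intervals leave room only for changes far below those of the chosen condensin genes that rose.

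Within cohesin the subunits were compared inside each array. Smc1a minus Rad21 was 1.03, 0.91 and 0.97 in controls against 0.39, 0.48 and 0.30 under the USP7 title, a difference in change of -0.58 with no overlap (exact permutation p = 0.1, adjusted over the pairs p = 0.167). Smc1a minus Smc3 was 0.26, 0.42 and 0.32 against -0.02, -0.11 and -0.01, a difference of -0.38 (exact permutation p = 0.1, adjusted over the pairs p = 0.167). Smc3 minus Rad21 was 0.77, 0.49 and 0.65 against 0.41, 0.59 and 0.31, with overlap, a difference of -0.20 (exact permutation p = 0.2, adjusted over the pairs p = 0.2). With other probe sets these ran from -0.92 to -0.31, from -0.26 to -0.11 and from -0.54 to -0.30. The planned pair Ncapd2 and Ncapd3 could not be formed.

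**Figure D3:**
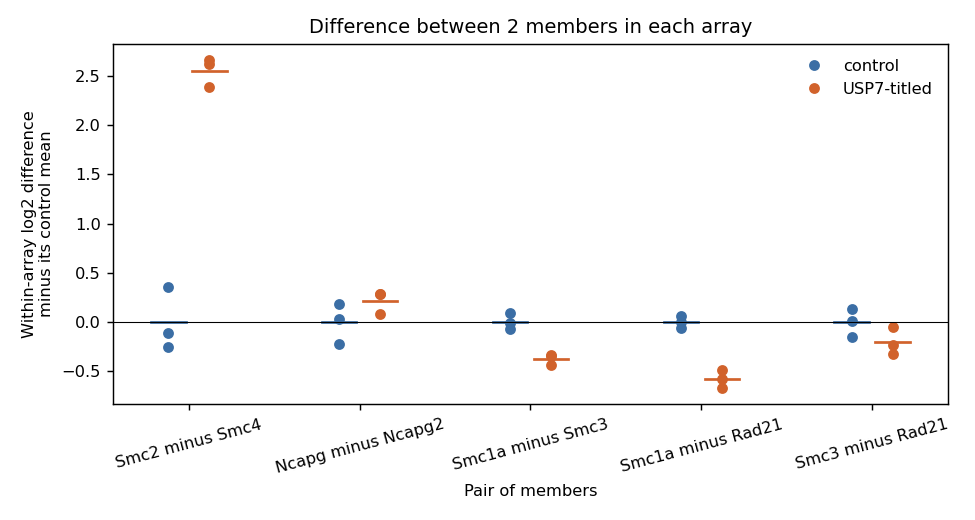
Within-array log2 difference between 2 members, shown minus its control mean, for the 5 pairs; points are arrays and short bars are group means. Smc2 minus Smc4 shifted by 2.55, and Smc1a minus Rad21 by -0.58.

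The loader subunits Nipbl and Mau2, the release and maintenance factor Pds5a and the loop anchor Ctcf all passed as lower, 4 of 4, with a median of -0.37, against 15.6% of genes lower; under spike scaling 1 of them, Mau2, still passed as lower and the median was -0.21. Mau2 changed by -0.68 (SE 0.12, limma adjusted p = 0.00134), with its other probe sets at -0.55 to -0.17. Pds5a read 10.03, 10.18 and 10.13 in controls against 9.68, 9.72 and 9.66 under the USP7 title, so the log2 change was -0.42 (SE 0.08, adjusted p = 0.00237 by limma). Nipbl changed by -0.31 (SE 0.10, limma adjusted p = 0.0308) and Ctcf by -0.25 (SE 0.09, limma adjusted p = 0.0448), although the Ctcf groups overlapped and its other probe set stood at 0.04. The calls of Nipbl and Ctcf were lost when single arrays were left out, with limma adjusted p up to 0.103 and 0.177. The count then ran from 2 to 3 of 4 and was never 4. It was 2 without control replicate 1, control replicate 2 or USP7-titled replicate 2. Ctcf also did not pass with array median centring, with its probe sets averaged or with eBayes without trend (limma adjusted p = 0.0643, 0.177 and 0.122).

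Of 5 genes that establish, protect or end cohesion, 3 were higher and 1 lower, with a median of 0.53. Among all genes 16.9% were higher and 15.6% lower. Cdca5, or sororin, which locks cohesin on replicated chromatids, read 6.69, 6.53 and 6.50 in controls against 9.59 to 10.21 under the USP7 title, so the log2 change was 3.36 (SE 0.16, adjusted p = 1.39e-07 by limma). Sgo1, or shugoshin, which protects centromeric cohesin, rose by 1.77 (SE 0.14, limma adjusted p = 5.66e-06) and the histone kinase Haspin by 0.53 (SE 0.13, limma adjusted p = 0.00962). The acetyltransferase Esco1, which modifies Smc3, fell by 0.56 (SE 0.08, limma adjusted p = 0.000375) by its brightest probe set. The other Esco1 probe set was at -0.18. Pttg1, or securin, the inhibitor of separase, was at -0.02 by its brightest probe set (limma adjusted p = 0.808), with others from -1.24 to 0.17. With its probe sets averaged it passed as lower, at -0.37 (limma adjusted p = 0.00532), and 2 genes of this list were then lower.

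Of 5 alternative cohesin subunits 1 passed, as higher, where 16.9% of all genes passed as higher and 15.6% as lower. Stag3, a subunit known from meiosis, was dim and read 4.84, 5.18 and 4.39 in controls against 6.27, 6.18 and 6.03 under the USP7 title, so the log2 change was 1.36 (SE 0.19, adjusted p = 0.000286 by limma). The somatic subunits Stag1 (-0.16) and the X-linked Stag2 (-0.12) and the meiotic Smc1b (-0.34) and Rec8 (-0.46) did not pass. Smc1b was near the threshold (limma adjusted p = 0.0541) and passed as lower in 4 alternatives, with limma adjusted p from 0.0245 to 0.0455. Without USP7-titled replicate 3, 1 of the 5 alternative subunits passed as lower. In the related complex of Smc5 and Smc6, which acts in DNA repair, 4 of 6 genes were higher and 1 lower, beside the same shares of all genes. Nsmce2 was at 0.70, Nsmce1 at 0.65, Smc5 at 0.39 and Nsmce4a at 0.22, while Smc6 fell by 0.45 (SE 0.09, limma adjusted p = 0.00282). As with Smc2 and Smc4, the SMC partners of this complex moved in opposite directions by their brightest probe sets, although Smc5 rose far less than Smc2 and its other probe set was at 0.10. The call of Smc5 was lost without control replicate 3 or USP7-titled replicate 1. That of Nsmce4a was lost in 5 of the 6 fits that left out 1 array. With the probe sets of a gene averaged, 2 of the 6 genes of this complex were higher, with a median of 0.24.

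The chosen condensin genes that rose stood beside other mitotic genes in size. For the counts that follow, 16.9% of all genes passed as higher. All 9 measured mitotic kinases, cyclins and passenger proteins rose, with a median of 2.95, among them Birc5 (3.70), Ccnb2 (3.33), Ccna2 (3.29) and Aurkb (3.08), whose product recruits condensin to chromosomes. The kinase Cdk1, which phosphorylates condensin, rose by 2.94 and Plk1 by 2.28. Among chromosome compaction partners 6 of 7 rose, with a median of 1.59. Topoisomerase Top2a rose by 3.09 by its brightest probe set, with the other at -0.24. Mki67, which coats mitotic chromosomes, rose by 2.16 and the kinesins Kif22 and Kif4 by 2.06 and 1.59. Top2b, the form used outside mitosis, was at -0.19 by its brightest probe set and did not pass. Its other probe sets were at -0.37 and -0.29. With quantile normalization Top2b passed as lower, at -0.24 (limma adjusted p = 0.0314). Of 19 replication genes 18 rose, with a median of 1.42, led by Cdc6 (2.66), Rrm2 (2.56), Gins1 (1.98) and Pole (1.88). In the same arrays Cdkn1a, the inhibitor of cyclin-dependent kinases known as p21, rose by 4.62.

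**Figure D4:**
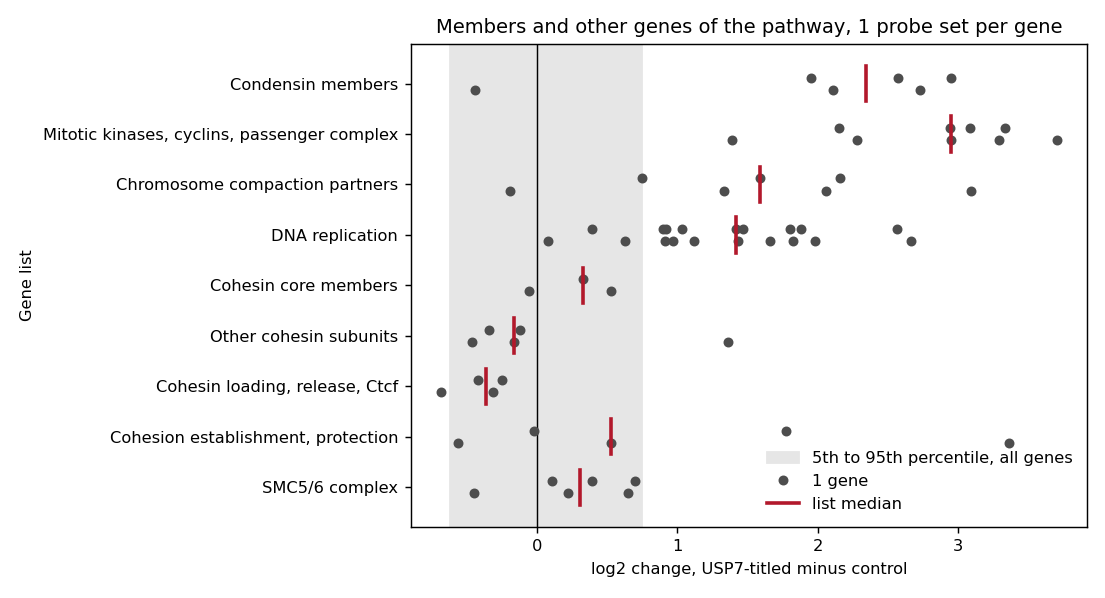
Log2 change of each gene by list, 1 probe set per gene; points are genes, red bars are list medians, and the grey band spans the 5th to 95th percentile of all genes, -0.62 to 0.75. The 5 chosen condensin genes that rose lie with the mitotic lists, whereas Smc4 and the cohesin core lie inside the band. Ncaph2, which rose by 0.70, is not plotted.

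The genes nearest to condensin in pattern were found by the distance between profiles over the 6 arrays, each centred on its own mean. Nearest to the mean of the 6 condensin genes, which changed by 1.98, were Cks2 (distance 0.129), Cks1b (0.175), Lmnb1 (0.204), Tyrobp (0.222) and Gmnn (0.235). With Smc4 left out of the mean, a choice made after the data were seen, the profile changed by 2.46 and the nearest were Cenph (0.167), Uhrf1 (0.282), Hmmr (0.287), Myl4 (0.294) and Plk1 (0.327). Tyrobp, an adaptor of myeloid and NK cells, stands among genes of cell division in the first list.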

How the data were processed

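Each of 6 arrays has a log2 value for every probe set, used as the authors deposited it, from 100 ng of total RNA each per the labels; how background was removed and probes were summarised is not given in the sources used here, no detection calls were used, and the log base was read from the values (2.21 to 14.47). Array medians ran from 7.91 to 7.96, and no further normalization was applied. Of 22690 probe sets 64 array controls were left out; platform annotation gave 20380 a single symbol, 691 several and 1555 none. All 22626 gene probe sets entered 1 linear model (lmFit and eBayes with its trend option, limma 3.58.1, R 4.3.3); two-sided p-values were adjusted by Benjamini-Hochberg across the whole table, and 0.05 was the threshold. For gene counts, each gene was represented by its brightest probe set on average. Pairs were compared by exact permutation tests. The number of arrays limits the precision. The fit was tested on simulated data in which 200 of 22626 probe sets changed, far fewer than passed in the real arrays. It recovered 20.9% of log2 changes of 0.5, 86.6% of those of 1 and 97% of those of 2, and 2.86% of its calls were false. Named genes were all members, 8 label and sex genes, the cohesin regulators, and from each other list up to 4 of those that passed, by size of change, or where none did the 2 of lowest p; Cd4, Il2ra, Prf1, Adgre1, Itgam, Cdk1, Plk1, Top2b and the smaller changes of the Smc5 and Smc6 complex were named after their values were seen. The members and lists were chosen with earlier results of these data known. Wapl, Pds5b, Hdac8, Esco2, Espl1 and other listed genes with no single-symbol probe set were not analysed here. Alternatives were other normalizations, filters, variance settings, probe set rules, weighted arrays, a block for the replicate number, and fits that drop 1 array.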

Additional observations from a re-analysis of the deposited data

How the results depend on the processing

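The calls of the 5 chosen condensin genes that rose, of Smc4 and of Rad21 held in all 17 alternatives. Smc4 stayed between -0.50 and -0.28. Cohesin genes called higher went from 2 to 1 with the probe sets of a gene averaged and with eBayes without trend, and ranged from 1 to 2 when single arrays were left out; each time Smc3 was lost. Its limma adjusted p was 0.0865 with averaging and 0.061 without trend. Scaling to the hybridization spikes took the other pathway genes called lower from 6 to 3, with 42 higher in both settings. It moved Tnfrsf18 and Cd3e, of the Treg and T cell list, from -0.12 and -0.11 to 0.04 and 0.05, where they did not pass. Il2ra, Cd4 and Hdac11 also changed their call under spike scaling. With the replicate number as a block, 14 of the 18 probe sets passed, as without it, and no member's call changed; same-numbered arrays deviated together with correlations of 0.069, -0.051 and 0.088, so the numbers were not taken as pairs. The fit without genes on X and Y gives no value for Smc1a. The cause of these differences was not tested. Without detection calls, how far the dim probe sets, such as Stag3, stand above background is unknown.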
